A study of Mus musculus with 4 samples.

Results

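Cell adhesion and tight junction genes of the mouse preimplantation embryo were followed from the oocyte to the blastocyst: Cdh1, Ctnnb1, Jup, Tjp1, F11r, Cldn4, Cldn6, Cldn7 and Dsp. These 9 genes were taken by symbol from a table of 20171 genes, and 35 of the 68012 isoforms of the isoform table were theirs. Every value came from full-length cDNA of single cells, tagged with a cell barcode and a molecular identifier (UMI) and read on the PacBio platform. The 161 cells were 10 MII oocytes of non-mated females at 20 h after hCG, 9 zygotes at 22 to 24 h, 10 cells of 5 early 2-cell (E2C) embryos at 30 to 32 h, 11 cells of 6 late 2-cell (L2C) embryos at 46 to 48 h, 17 cells of 5 4-cell embryos at 54 to 56 h, 26 cells of 4 8-cell embryos at 68 to 70 h, 38 cells of 4 16-cell embryos and 22 cells of 32-cell embryos at 78 to 80 h, 13 early blastocyst cells at 88 to 90 h, and 5 mouse embryonic stem cells (mESC, the male E14 line). Oocytes and embryos came from C57BL/6J females 6 to 8 weeks old that had been given PMSG and hCG to induce ovulation, mated for embryos with males given as DBA/2NCrl in the design and as DBA/2J in the strain field. The 32-cell, blastocyst and mESC columns name no embryo or culture, so their cells are given by range and median, with no test.

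Neighbouring cells of an epithelium are held together by junctions. In the adherens junction, E-cadherin (Cdh1) binds its like on the next cell and is tied to actin through beta-catenin (Ctnnb1) and alpha-catenin, and plakoglobin (Jup) can take the place of beta-catenin. In the tight junction, claudins (Cldn4, Cldn6, Cldn7) and junctional adhesion molecule A (F11r) span the membrane, and ZO-1 (Tjp1) joins them to the cytoskeleton. In the desmosome, plakoglobin and desmoplakin (Dsp) link cadherins to keratin filaments. The mouse embryo compacts at the 8-cell stage, when E-cadherin draws the blastomeres together, and its outer cells then form the trophectoderm, whose tight junctions seal the blastocyst cavity.

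Levels are given as copies per 100,000 UMIs of a cell, averaged over the cells of an embryo. Differences between stages are log2 differences of (copies + 1), which understate the change of low genes, with the standard error (SE) of limma's test on 43 oocytes, zygotes and embryos in 1 fit. A gene was called when this difference was over 1 in size with an unadjusted p under 0.01, and Benjamini-Hochberg adjusted p-values over all 11682 tested genes are given beside it. Of the 9 genes, 8 were tested, and Dsp was too low to pass the filter. Cells held between 4985 and 389775 UMIs, with a median of 195670.5 in oocytes and 32466 in 4-cell embryos, so 1 UMI weighed more in the later stages. In 5 embryos the median cell held under 20000 UMIs: L2C embryo 1, 4-cell embryo 2, 8-cell embryo 3 and 16-cell embryos 3 and 4. Less RNA of a gene per cell and more RNA of other genes cannot be told apart in such shares.

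Against their labels, the stages were checked by summed marker levels. The 8 oocyte and polar body markers summed to a median of 3643 copies in oocytes, 113 in L2C, 210 in 4-cell, 120 in 8-cell and 263 in 16-cell embryos, 19.2 in 32-cell cells and 276 in blastocyst cells. In mESC these oocyte markers summed to 87.4 to 184 copies, with 3 of the 8 at 0. The 8 inner cell mass and epiblast markers summed to 108 to 158 copies in mESC, where all 5 primitive endoderm markers were at 0. Of 7 cumulus and granulosa cell markers, 5 were in the table, and their sum was at most 3.10 copies in any oocyte, embryo or cell.

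**Figure D1:**
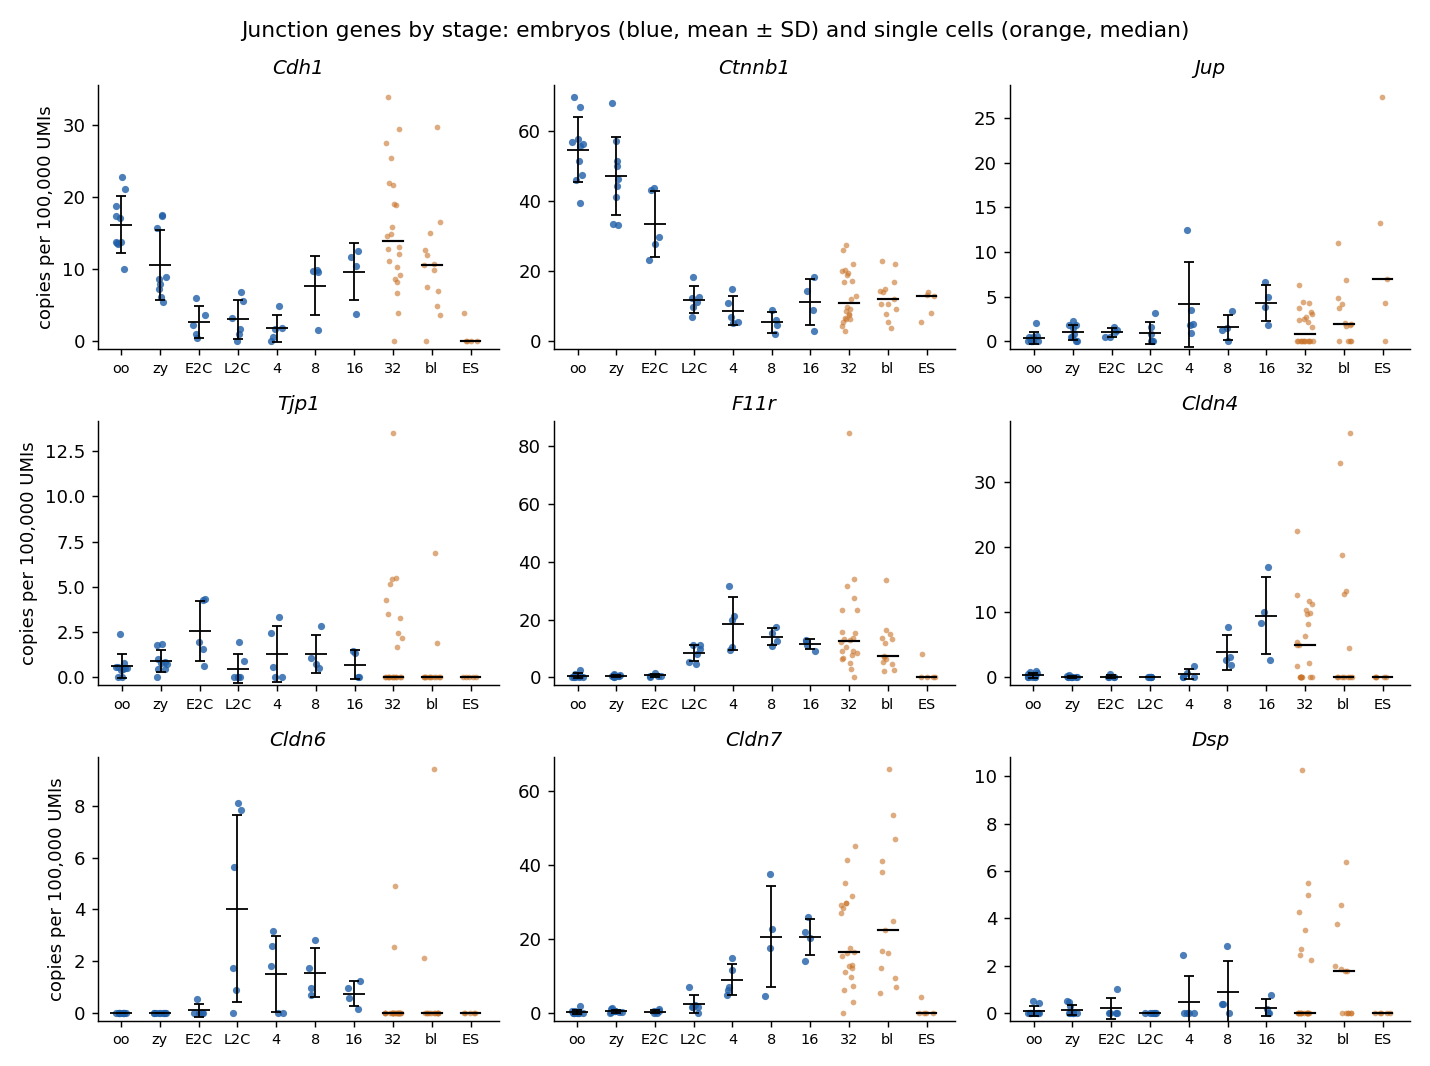
Copies per 100,000 UMIs of the 9 genes by stage, one panel a gene. Points are embryos from oocyte to 16-cell (bars, mean and SD) and single cells in 32-cell, blastocyst and mESC columns (bar, median); Ctnnb1 and Cdh1 start high in oocytes, F11r and Cldn6 stand higher at L2C than at E2C, and every 8-cell and 16-cell embryo lies above every oocyte in Cldn4 and Cldn7, while 7 of 13 blastocyst cells have no Cldn4.

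Cdh1, which encodes E-cadherin (chr8:106603351-106670246, plus strand), was high in the oocyte, low through the 2-cell and 4-cell stages and high again from the 8-cell stage. Oocytes held 10.1 to 22.7 copies (16.2 ± 3.92, SD, n = 10) and zygotes 5.44 to 17.4 (10.6 ± 4.85, SD, n = 9). Zygotes 7, 8 and 9 held 15.7, 17.4 and 17.4 copies, and the other zygotes at most 8.99. The oocyte markers summed to 3471 to 3772 copies in zygotes 7 to 9 and to 1580 to 2560 in the others. Why the zygotes differ was not tested. The 5 E2C embryos held 5.99, 2.29, 3.6, 1.10 and 0.543 copies. The zygote-to-E2C difference was -1.62 ± 0.31 (SE, limma adjusted p = 0.000123), and only E2C embryo 1 lay within the range of the zygotes.

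L2C embryos held 5.56, 1.0, 0, 6.82, 3.29 and 1.75 copies of Cdh1, and 4-cell embryos 1.72, 0, 4.88, 1.91 and 0.685. The 8-cell embryos held 9.91, 9.80, 1.59 and 9.60 copies, 3 of them above every 4-cell embryo. The low one, 8-cell embryo 3, was read from 3 cells and rests on 1 UMI. The 16-cell embryos held 11.7, 12.5, 10.5 and 3.85 copies, and only embryo 4 lay within the 4-cell range. Cdh1 rose by 1.92 ± 0.46 from 4-cell to 8-cell (SE, limma adjusted p = 0.00189) and by 2.16 ± 0.46 from 4-cell to 16-cell (SE, limma adjusted p = 0.000351). Between 8-cell and 16-cell the difference was 0.25 ± 0.43 (SE) and was not called. In 32-cell cells the median was 13.8 copies (0 to 33.8, 22 cells), in blastocyst cells 10.6 (0 to 29.7, 13 cells). The 5 mESC held 1 Cdh1 UMI among 103590.

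Ctnnb1, the beta-catenin gene (chr9:120929216-120960507, plus strand), fell between E2C and L2C and stayed below its oocyte level afterwards. Oocytes held 54.7 ± 9.18 copies (SD, n = 10), zygotes 47.2 ± 11.1 (SD, n = 9) and E2C embryos 29.7, 43.8, 23.2, 27.9 and 43.1. The L2C embryos held 11.1, 18.3, 12.4, 12.8, 9.79 and 6.90, all below the lowest E2C embryo. This fall was -1.38 ± 0.33 (SE, limma adjusted p = 0.000315).

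The 4-cell embryos held 6.84, 14.9, 11, 5.32 and 5.53 copies of Ctnnb1, the 8-cell embryos 8.90, 2.02, 4.76 and 5.99, and the 16-cell embryos 9.09, 18.3, 3.07 and 14.3. The ranges of these stages overlapped, and none of the 3 comparisons among them was called by limma. On recovered UMIs, the 4-cell to 16-cell difference of Ctnnb1 was called by edgeR (1.26, adjusted p = 0.0202) and by DESeq2 (1.34, adjusted p = 0.00717). The 16-cell embryo with the most Ctnnb1, embryo 2, had the smallest sum of oocyte markers of its stage, 15.4 copies, against up to 368 in the other 16-cell embryos. At the 8-cell stage the order was the other way: embryo 2, with the smallest sum (25.7 copies), had the least Ctnnb1, and embryo 1, with the largest (207), had the most. The part of oocyte RNA in the Ctnnb1 and Cdh1 levels was not tested. Medians were 11.1 copies in 32-cell cells, 12.2 in blastocyst cells and 12.9 in mESC.

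Jup (chr11:100368958-100397763, minus strand), which encodes plakoglobin, stayed low and was called in no comparison. Oocytes held at most 2.08 copies, L2C embryos at most 3.16 and 8-cell embryos at most 3.4. The 4-cell embryos held 0.923, 12.5, 3.57, 1.80 and 1.97 copies, where the value of embryo 2 rests on 2 UMIs in 2 cells. The 16-cell embryos held 1.86, 4.96, 6.66 and 3.81. In mESC, 4 of 5 cells held Jup, with a median of 7.01 copies (0 to 27.3).

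Among the tight junction genes, F11r, Cldn6 and Cldn7 were first called higher at L2C and Cldn4 at the 8-cell stage, and the sequences around their starts are shown because these are the genes that rose. Each is 300 bases of the RefSeq promoter table (GRCm38.p6), from 250 before to 50 after the annotated start, 5′ to 3′ on the gene's strand. Capitals mark matches to motifs that were picked after these letters had been seen. The windows are F11r at chr1:171437311-171437610 (plus), Cldn4 at chr5:134946885-134947184 (minus), Cldn6 at chr17:23679115-23679414 (plus) and Cldn7 at chr11:69965171-69965470 (plus), the Cldn7 window with a CRE. The other Cldn7 window (chr11:69964529-69964828, plus) is described without its letters.
F11r: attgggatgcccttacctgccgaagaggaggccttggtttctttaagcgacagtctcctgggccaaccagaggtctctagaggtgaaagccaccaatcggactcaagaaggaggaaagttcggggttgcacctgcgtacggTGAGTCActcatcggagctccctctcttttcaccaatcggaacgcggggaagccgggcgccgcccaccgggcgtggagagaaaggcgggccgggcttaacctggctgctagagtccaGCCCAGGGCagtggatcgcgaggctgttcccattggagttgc
Cldn4: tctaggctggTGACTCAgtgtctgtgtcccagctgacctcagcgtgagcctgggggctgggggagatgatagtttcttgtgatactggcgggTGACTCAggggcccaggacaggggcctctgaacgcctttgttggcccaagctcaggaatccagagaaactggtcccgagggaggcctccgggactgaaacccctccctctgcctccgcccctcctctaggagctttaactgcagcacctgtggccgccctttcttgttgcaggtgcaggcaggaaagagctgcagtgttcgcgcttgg
Cldn6: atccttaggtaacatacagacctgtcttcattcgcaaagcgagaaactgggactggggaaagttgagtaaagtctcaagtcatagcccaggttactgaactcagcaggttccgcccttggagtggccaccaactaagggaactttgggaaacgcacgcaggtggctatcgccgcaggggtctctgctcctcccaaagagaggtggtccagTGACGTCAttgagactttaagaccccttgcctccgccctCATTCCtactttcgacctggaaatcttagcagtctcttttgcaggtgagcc
Cldn7: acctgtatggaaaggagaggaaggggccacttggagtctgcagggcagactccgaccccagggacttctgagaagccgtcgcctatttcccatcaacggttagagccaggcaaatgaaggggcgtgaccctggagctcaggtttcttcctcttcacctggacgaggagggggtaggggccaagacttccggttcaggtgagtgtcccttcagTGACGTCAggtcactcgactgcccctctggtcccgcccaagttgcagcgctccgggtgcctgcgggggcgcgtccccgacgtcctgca

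Both strands were searched for an AP-1 site (TGANTCA), a CRE (TGACGTCA), a TEAD motif (GGAATG), an AP-2 motif (GCCNNNGGC) and an NR5A motif (AAGGTCA). The Cldn4 window held an AP-1 site at -240 and another at -158 from the start, and the F11r window 1 at -109 with an AP-2 motif at 8. The Cldn6 and Cldn7 windows each held a CRE, at -40 and -38, and Cldn6 a TEAD motif at -1, on the other strand. The other Cldn7 window held no CRE and a TEAD motif at -70. Of 32851 promoters in the table, 7.81% held the AP-1 letters, 1.79% the CRE, 14.7% the TEAD motif, 16.6% the AP-2 motif and 4.72% the NR5A motif. These are matches of letters, and binding was not measured.

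F11r (chr1:171437535-171464603, plus strand), the gene of junctional adhesion molecule A, was nearly absent up to E2C and present in every L2C embryo. Oocytes held 0.527 ± 0.809 copies (SD, n = 10) and E2C embryos 0.637 ± 0.591 (SD, n = 5). The L2C embryos held 11.1, 4.70, 8.09, 5.31, 11.3 and 9.94 copies, all above the highest E2C embryo at 1.61. F11r rose by 2.52 ± 0.39 (SE, limma adjusted p = 1.10e-07). The 4-cell embryos held 10.6, 19.8, 9.34, 21.4 and 31.8 copies, a further difference of 1.22 ± 0.44 that was called on the unadjusted p (SE, limma adjusted p = 0.112), and 2 of the 5 lay within the L2C range. The 8-cell embryos held 14.0 ± 2.89 (SD, n = 4) and the 16-cell embryos 11.5 ± 1.79 (SD, n = 4), neither called against the 4-cell stage. Of the 22 32-cell cells, 21 held F11r, with a median of 12.6 copies (0 to 84.5), and all 13 blastocyst cells did, with a median of 7.45. In mESC, 1 of 5 cells held F11r.

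Cldn6 (chr17:23679249-23682446, plus strand), a claudin, had no UMI in oocytes or zygotes and 1 in the E2C embryos. The L2C embryos held 0, 1.74, 8.09, 5.65, 7.84 and 0.875 copies (4.03 ± 3.61, SD, n = 6), which gave a rise of 1.99 ± 0.33 (SE, limma adjusted p = 5.22e-07). By counts these were 28 UMIs against 1, a ratio of 39.6 with a 95% counting interval of 6.55 to 1620. The SE of the rise pools all stages, so the oocytes and zygotes, all at 0, lower it. The 4-cell embryos held 2.57, 0, 3.15, 1.80 and 0 copies, a fall of 1.07 ± 0.37 on the log2 scale (SE, limma adjusted p = 0.097), with overlapping ranges. The 8-cell mean was 1.55 ± 0.945 (SD, n = 4) and the 16-cell mean 0.755 ± 0.471 (SD, n = 4). Only 3 UMIs were seen in the 32-cell cells and 6 in the blastocyst cells.

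Cldn7 (chr11:69964779-69967885, plus strand) was called higher at L2C and again at the 4-cell stage. The E2C embryos held 0.437 ± 0.456 copies (SD, n = 5). The L2C embryos held 0, 1.74, 1.58, 1.66, 7.13 and 2.21, a rise of 1.24 ± 0.42 (SE, limma adjusted p = 0.0102). The 4-cell embryos held 4.97, 14.9, 6.34, 11.8 and 6.93, of which 3 lay below the highest L2C embryo, a difference of 1.46 ± 0.48 (SE, limma adjusted p = 0.0775).

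The 8-cell embryos held 4.69, 17.6, 37.5 and 22.6 copies of Cldn7 and the 16-cell embryos 14.2, 20.2, 26.1 and 21.9. The 16-cell embryos lay above 4 of the 5 4-cell embryos. With limma the 4-cell to 16-cell difference was 1.05 ± 0.46 (SE, adjusted p = 0.105) and was not called. It was called with TMM factors (1.54, adjusted p = 0.0239), by edgeR (1.78, adjusted p = 0.00151) and by DESeq2 (1.85, adjusted p = 0.00312). All 13 blastocyst cells held Cldn7, with a median of 22.4 copies (5.34 to 65.9), and the 32-cell median was 16.4. The 5 mESC held 1 UMI.

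Cldn4 (chr5:134945119-134946934, minus strand) appeared at the 8-cell stage. No UMI was seen among 599502 in L2C embryos, which allows up to 0.500 copies, and 3 were seen in the 4-cell embryos, at 1.78, 0, 0, 0.602 and 0 copies. The 8-cell embryos held 2.60, 1.88, 3.17 and 7.81 copies and the 16-cell embryos 8.37, 2.60, 17.0 and 10.0, and every embryo of both stages lay above every 4-cell embryo. Cldn4 rose by 1.70 ± 0.36 from 4-cell to 8-cell (SE, limma adjusted p = 0.000476) and by 2.66 ± 0.36 from 4-cell to 16-cell (SE, limma adjusted p = 9.34e-08). By counts the ratios to the 4-cell stage were 7.35 (95% counting interval 2.31 to 37.5) and 11.4 (3.75 to 56.3). Between 8-cell and 16-cell the difference was 0.96 ± 0.34 (SE, limma adjusted p = 0.170), just under the limit in size. Oocytes held 7 Cldn4 UMIs among 2027809, and mESC none.

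Tjp1 (chr7:65296165-65527781, minus strand), the ZO-1 gene, was low at every stage, with 106 UMIs in all cells. The E2C embryos held 0.652, 1.95, 4.29, 1.58 and 4.31 copies, and 4 of the 6 L2C embryos held none (0.474 ± 0.812, SD, n = 6). This fall was -1.16 ± 0.41 (SE, limma adjusted p = 0.0123), and the count ratio was 4.48 in favour of E2C (95% counting interval 1.32 to 23.6). From 4-cell to 16-cell no embryo held over 3.36 copies, and 10 of the 22 32-cell cells held Tjp1. Dsp (chr13:38151294-38198577, plus strand), the desmoplakin gene, had 42 UMIs in all, of which 15 were in 8 of the 22 32-cell cells and 11 in 7 of the 13 blastocyst cells. No L2C embryo and no mESC held a Dsp UMI.

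Of the 8 tested genes, 0 were called between oocyte and zygote, where 3.24% of all tested genes were, and 2 had an unadjusted limma p under 0.05 (Cdh1 and Jup). Between zygote and E2C 1 was called lower, against a background of 7.27%. Between E2C and L2C 3 were called higher and 2 lower, against 48.4% of all tested genes, so calls were common among all genes at this step. Between L2C and 4-cell 2 were called higher and 1 lower (background 6.69%), but none of these 3 held at an adjusted p under 0.05. Between 4-cell and 8-cell 2 were called, both higher (background 15.0%). Between 8-cell and 16-cell 0 were called (background 3.36%), 2 had an unadjusted limma p under 0.05 (Ctnnb1 and Cldn4), and edgeR and DESeq2 each called 1, Ctnnb1. Between 4-cell and 16-cell 2 were called, Cdh1 and Cldn4, both higher (background 17.7%). The comparisons share embryos, so they are not independent.

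**Figure D2:**
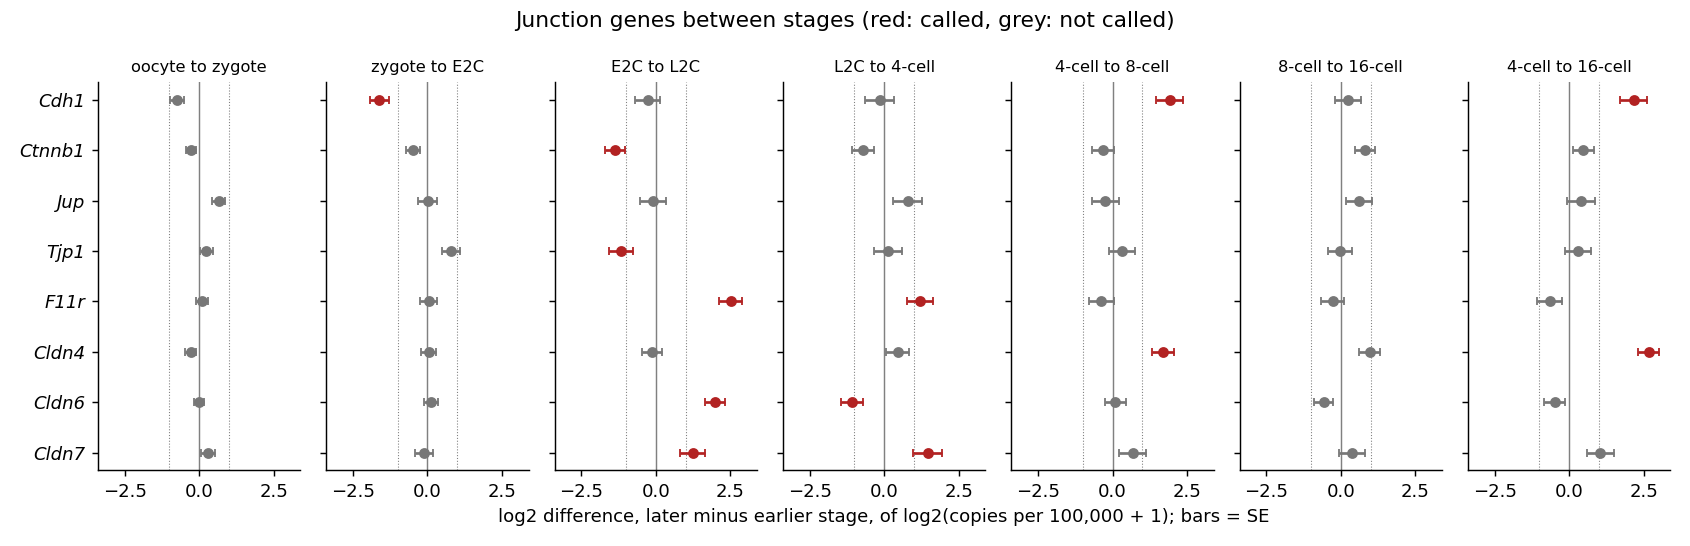
Log2 difference of (copies per 100,000 + 1) between stages for the 8 tested genes, later minus earlier stage, with bars of 1 SE and called differences marked. Cdh1 and Cldn4 are the called genes from 4-cell to 8-cell and from 4-cell to 16-cell, and 5 genes are called from E2C to L2C.

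The wider sets of junction and polarity genes held 107 symbols, of which 96 were in the table and 72 were tested. From 4-cell to 8-cell 10 were called higher and 5 lower, 20.8% of the sets against 15.0% of all tested genes. From 4-cell to 16-cell 13 were called higher and 6 lower, 26.4% against 17.7%, where 753 of all 11682 tested genes were called higher and 1311 lower. Their median difference from 4-cell to 16-cell was 0.13, beside -0.09 over all tested genes. Of 8 tested desmosome genes 4 were called higher and 0 lower, of 15 adherens junction and nectin genes 3 higher and 0 lower, and of 28 tight junction genes 3 higher and 2 lower. Of 18 cell polarity genes 1 was called higher and 3 lower. Trophectoderm markers rose over the same step: 6 of 8 tested were called higher, with a median difference of 1.89. The sum of the 9 in the table had a median of 12.5 copies (6.13 to 14.9) in 4-cell and 52.4 (39.7 to 58.8) in 16-cell embryos. Of these 9, Cdx2, Eomes and Krt7 were at 0 in 4-cell embryos and none was in 16-cell embryos. Krt8 and Krt18, 2 of the 4 called desmosome genes, are in both lists. Of 7 tested inner cell mass and epiblast markers, 3 were called higher and 1 lower from 4-cell to 16-cell, with a median difference of 0.45. The sum of that list had a median of 34.1 copies in 4-cell and 60.3 in 16-cell embryos. The part of the trophectoderm markers in the sets' counts was not tested.

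Among the desmosome genes, Krt18, a keratin, stood at 0.656 ± 1.13 copies at the 4-cell stage (SD, n = 5), rose to 11.4 ± 3.12 by the 8-cell stage (SD, n = 4) and was at 15.9 ± 7.74 by the 16-cell stage (SD, n = 4). Perp, a desmosome membrane protein, had no UMI in 4-cell embryos and reached 11.9 ± 2.95 copies (SD, n = 4) at 16-cell. Ybx3, a Y-box protein found at tight junctions, rose from 3.68 ± 3.35 (SD, n = 5) to 23.7 ± 5.29 copies (SD, n = 4) at 8-cell, and its difference between 4-cell and 16-cell was 3.35 ± 0.60 (SE). Gja1, the connexin 43 gene, rose from 3.49 ± 1.53 (SD, n = 5) to 16.0 ± 7.14 copies (SD, n = 4) at 8-cell. These 4 genes had limma adjusted p-values between 4.44e-11 and 0.00195 in these comparisons.

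Other genes of the sets fell in the same embryos. Crb3, an apical polarity protein of the Crumbs complex, fell from 35.5 ± 9.64 copies at the 4-cell stage (SD, n = 5) to 8.56 ± 5.70 by the 16-cell stage (SD, n = 4), a difference of -2.04 ± 0.40 (SE, limma adjusted p = 0.000106). It was also lower at 16-cell than at 8-cell, by -1.36 ± 0.37 (SE, limma adjusted p = 0.0412). Cxadr, a junction protein known as the coxsackievirus and adenovirus receptor, fell from 17.3 ± 4.03 (SD, n = 5) to 4.97 ± 2.01 (SD, n = 4). Stk11, the LKB1 kinase gene, fell from 12.6 ± 5.41 (SD, n = 5) to 4.34 ± 1.31 (SD, n = 4), a difference of -1.09 ± 0.38 (SE, limma adjusted p = 0.036).

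**Figure D3:**
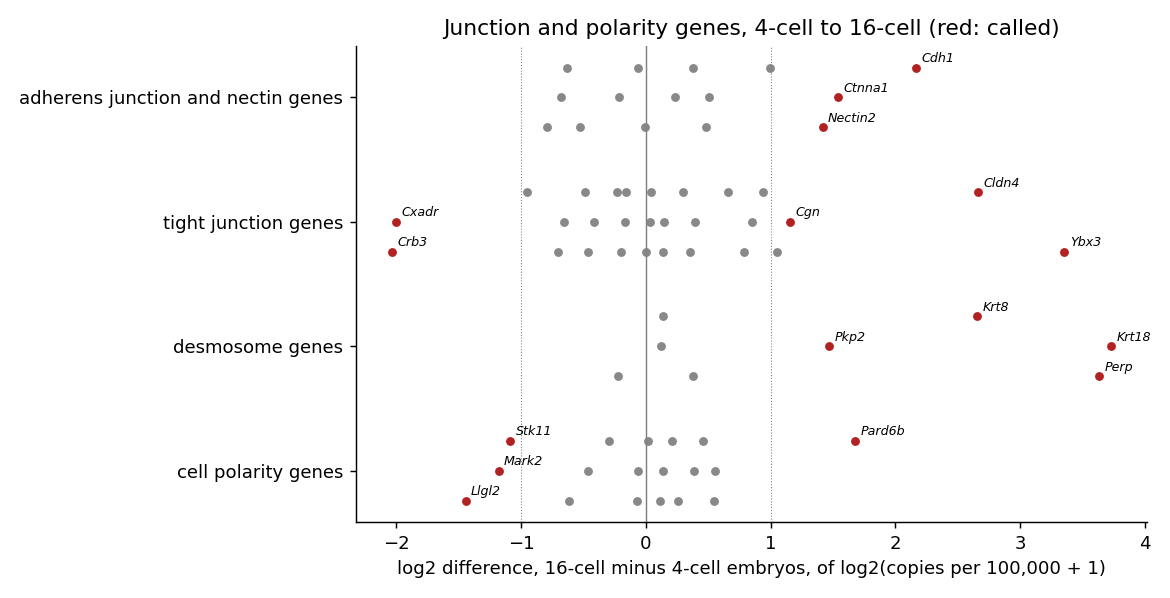
Log2 difference between 4-cell and 16-cell embryos of each tested gene in 4 sets of junction and polarity genes; red points are called and named, dotted lines mark a difference of 1 in size, and the vertical spread within a set carries no meaning. Krt18, Perp and Ybx3 lie at 3.35 or more, and Crb3 and Cxadr at -2.04 and -2.0.

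Within the blastocyst, Cldn4 was held by some cells and not by others. Of 13 cells 6 held Cldn4, with 2 to 19 UMIs each, and 7 held none. The 6 cells with Cldn4 held 15 to 66 Krt18 UMIs and 16 to 58 of Krt8, the other keratin of simple epithelia, while the 7 without held 0 to 3 and 0 to 13. Gata3, a trophectoderm transcription factor, was found in all 6 and in none of the 7. Sox2, a factor of the inner cell mass, was found in none of the 6 and in 5 of the 7. Of the marker lists, only Krt8, Krt18, Cdx2, Gata3, Nanog, Pou5f1 and Sox2 were read cell by cell. The rest of the lists was not split by Cldn4. The other markers read by cell overlapped between these cells. Cdx2, of the trophectoderm list, was at 0 to 3 UMIs in the 6 and 0 to 1 in the 7. Of the inner cell mass list, Nanog was at 0 to 11 and 1 to 11 UMIs in the same order. Pou5f1 was at 0 to 12 and 6 to 19. The depths overlapped: the cells with Cldn4 held 18215 to 53110 UMIs and the cells without 41022 to 56493.

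The UMI ranges of Cldn7, F11r, Cdh1 and Ctnnb1 overlapped between these blastocyst cells. Cldn7 was found in all 13, at 5 to 27 UMIs in cells with Cldn4 and 3 to 14 in those without. F11r was at 3 to 17 and 1 to 5 UMIs in the same order, and Cdh1 at 3 to 13 and 0 to 6. Ctnnb1 was at 3 to 8 and 2 to 13 UMIs. Tjp1 was found in 2 of the 6 and none of the 7, and Cldn6 likewise in 2 and none.

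Correlations between cells were taken on log2(copies + 1). Over the 13 blastocyst cells Pearson's r between Cldn4 and Krt18 was 0.910 (Spearman's rho 0.848). This r was 0.308 over 38 16-cell cells, 0.313 over 22 32-cell cells and 0.054 over 26 8-cell cells. In the blastocyst cells r with Krt18 was 0.720 for Cldn7, 0.641 for F11r and 0.544 for Cdh1 (rho 0.747). Between Cldn4 and Krt8, r was 0.821 in blastocyst cells, 0.680 in 32-cell cells and -0.067 in 16-cell cells. These are descriptions on cells that share libraries and embryos, with no test. At the 16-cell stage 28 of 38 cells held Cldn4, and Krt18 ran from 0 to 25 UMIs in these and from 0 to 7 in the other 10. By embryo, 9 of 11, 9 of 15, 6 of 7 and 4 of 5 cells of the 16-cell embryos held Cldn4.

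**Figure D4:**
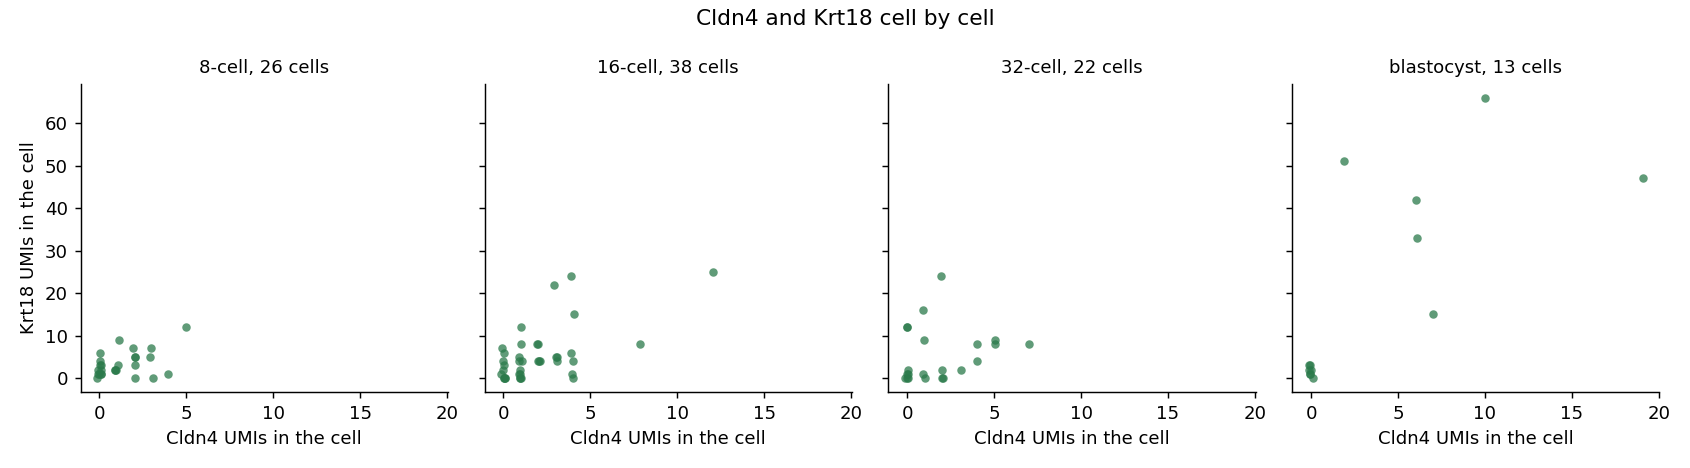
Cldn4 against Krt18 UMIs in single cells, not scaled to the depth of the cell, one panel a stage. In the 13 blastocyst cells the 6 with Cldn4 stand apart in Krt18 from the 7 without, while at the 16-cell stage the Krt18 ranges of cells with and without Cldn4 overlap.

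How far a junction transcript could be read as an isoform differed between the genes. Of the gene's UMIs over all cells, 94.4% were placed on an isoform for Cldn4, 93.5% for Ctnnb1, 87.5% for Cldn7 and 61.9% for Cldn6, but 9.43% for Jup, 6.19% for Cdh1, 5.66% for Tjp1, 3.16% for F11r and none for Dsp. Isoforms with the whole annotated coding region took 130 of 201 isoform UMIs of Cldn4, 563 of 678 of Cldn7 and all 39 of Cldn6. They took 28 of 2825 for Ctnnb1 and 7 of 63 for Cdh1. Most Ctnnb1 isoform UMIs, 2037, were on a single exon at the 3′ end (chr9:120959181-120960515), which overlaps an annotated retained-intron transcript.

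Of the 35 isoforms 19 were tested. None was called between oocyte and zygote (background 1.48% of tested isoforms), zygote and E2C (5.18%) or 8-cell and 16-cell (1.97%). Between E2C and L2C 2 were called (background 26.0%), the single-exon Ctnnb1 form at -1.84 ± 0.46 and a 2-exon Cldn6 form at 1.37 ± 0.25 (SE, limma adjusted p = 0.00115 and 1.66e-05). Between L2C and 4-cell 2 were called (background 4.29%). The main 4-exon Cldn7 form (chr11:69965031-69967956) rose from 1.41 ± 2.96 copies (SD, n = 6) to 8.36 ± 3.74 (SD, n = 5), by 2.37 ± 0.52 (SE, limma adjusted p = 0.00473), and the 2-exon Cldn6 form fell by 1.37 ± 0.27 (SE, limma adjusted p = 0.00154). This Cldn6 form had no UMI in oocytes, zygotes, E2C or 4-cell embryos, which lowers its pooled SE in both comparisons. Between 4-cell and 8-cell 1 was called, the full-length Cldn4 form (background 7.93%, 1.25 ± 0.43, SE, limma adjusted p = 0.0589).

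Between 4-cell and 16-cell 3 isoforms were called (background 10.3%). The full-length Cldn4 form (chr5:134945119-134946937) differed by 2.28 ± 0.42 and the short form, which lacks part of the coding region (chr5:134945126-134945936), by 1.82 ± 0.34 (SE, limma adjusted p = 8.21e-05 and 9.63e-05). The single-exon Ctnnb1 form differed by 1.39 ± 0.45 (SE, limma adjusted p = 0.0328), a call that was lost under 9 of 19 alternatives, with a lowest value of 0.93. The 2 Cldn4 forms held 24 and 8 UMIs in 8-cell, 50 and 24 in 16-cell, 16 and 20 in 32-cell and 31 and 15 in blastocyst cells, full-length form first. The start of the main Cldn7 form, at 69965031, lies in neither of the 2 Cldn7 windows of the promoter table. It lies upstream of the window with the CRE. The position of that CRE, -38, is counted from another annotated start, at 69965421, and the CRE lies downstream of the start of the main form.

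The 2 Cldn6 isoforms differ by a middle exon of 64 bases (chr17:23679758-23679821) that lies before the coding region, so both hold the same coding region. In L2C cells 8 of 18 isoform UMIs had the exon (44.4%, exact 95% interval 21.5 to 69.2), and from 4-cell to blastocyst 18 of 21 did (85.7%, 63.7 to 97.0). By L2C embryo the UMIs with and without it were 0 and 1 in embryo 2, 3 and 3 in embryo 3, 0 and 3 in embryo 4, and 5 and 3 in embryo 5. The intervals cover counting error only, and this contrast was noticed in the data and was not tested. For Tjp1, the alpha exon of 240 bases (chr7:65314093-65314332), whose skipping is a known choice of ZO-1, was reached by none of its isoforms, since the 1 Tjp1 isoform covers chr7:65342632-65371258.

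**Figure D5:**
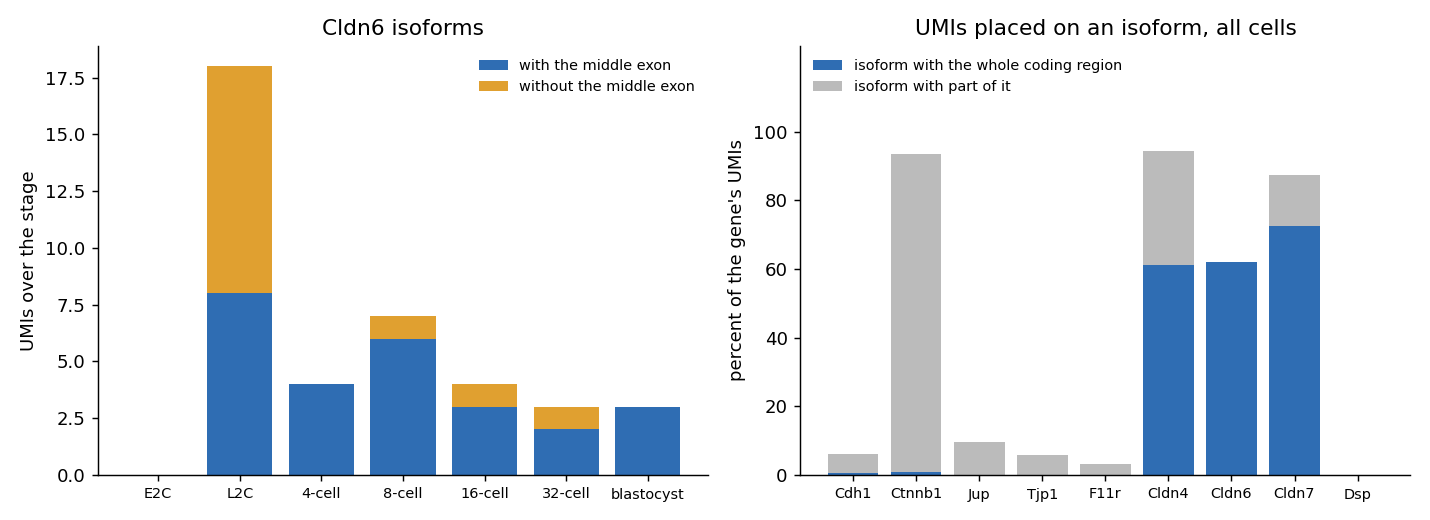
Left, UMIs of the 2 Cldn6 isoforms by stage, summed over cells, with and without the middle exon: 10 of 18 are without it at L2C and 3 of 21 from 4-cell to blastocyst. Right, percent of each gene's UMIs over all cells placed on an isoform, in isoforms with the whole coding region and in others; Cldn4, Cldn6 and Cldn7 are mostly read whole and Ctnnb1 mostly in part.

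The genes whose 10 stage means, as log2(copies + 1), were most like those of the junction genes were searched among 4276 genes. For Cldn4 these were Perp (Pearson's r = 0.979), Krt18 (0.976) and Fbp2 (0.973), and for Cldn7 Calcoco2 (0.992), Lpcat3 (0.990) and Bhmt (0.989). For F11r they were Plac9a (0.987), Tpm3-rs7 (0.987) and Ipo7 (0.986), and for Cldn6 Rab10os (0.982), Ppp1r15b (0.950) and Yipf1 (0.946). For Ctnnb1 they were Ndfip2 (0.985), Cops8 (0.983) and Cks1b (0.982), and for Cdh1 Slc43a3 (0.914), Tm9sf3 (0.905) and Pdcd6 (0.899). The closest were BC005624 (0.939) for Jup, Golga7 (0.905) for Tjp1 and Cds2 (0.896) for Dsp. With 10 points and this many genes, such values are a description.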

How the data were processed

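Single cells were amplified with a 10x gel bead and a Smart-seq2 protocol, and PacBio consensus reads were mapped to mm10 by the authors with minimap2, assigned to genes with gffcompare, collapsed to isoforms with cDNA_Cupcake and filtered with SQANTI3. The authors deposited copies per 100,000 UMIs of a cell, a CPM divided by 10. Columns whose cells are named one by one were recorded as a score, on the same deposited scale. Of the values in the gene and isoform files, 100% were whole UMIs within 0.1, and these recovered UMIs served edgeR and DESeq2. Isoform values are scaled to all isoform UMIs before rare isoforms were removed, so a cell sums to 84419 to 97144.

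Values were averaged per embryo, genes with at least 1 copy in 4 embryos were kept, and log2(copies + 1) was fitted with limma 3.58.1 (trend, array weights, R 4.3.3) over 43 oocytes, zygotes and embryos; edgeR 4.0.16 and DESeq2 1.42.0 were alternatives. Tests were two-sided. The scripts were tested on simulated data. The junction genes and all gene sets were chosen with earlier results of these data known. Genes of the wider sets were named if called, at 10 or more copies in the higher stage, up to 4 per direction and comparison from 4-cell on; for each gene the 3 most alike genes were taken, and isoforms by most UMIs. One gene that the rule names is not reported here, and the gap junction set is not plotted. Loci are from GENCODE, motifs from the RefSeq table; the promoter of Cdh1 was not analysed here. Embryos were told from cell names, so each embryo n assumes that runs did not give different embryos the same number, which is not known. The sequencing run of a cell is not known for most stages, so runs and stages cannot be told apart, and p-values measure the spread between embryos. A table of oocytes and oocyte pieces was not used here. Counting intervals are exact (Clopper-Pearson) and cover counting error only.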

Additional observations from a re-analysis of the deposited data

Results flagged for a closer look

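In groups of 4 to 10 embryos, 59 groups of the 9 genes were looked at for a single embryo far from the rest, and 12 were found. A chance rate of about 1 in 20 groups assumes continuous values, so it does not hold for these low counts. A group with 1 embryo above 0 and the rest at 0 is flagged in every case. Most of the 12 rest on a few UMIs. Cdh1 in 8-cell embryo 3 was at 1.59 copies per 100,000 (1 UMI), with the nearest other embryo at 9.60. Jup was at 12.5 in 4-cell embryo 2 (2 UMIs, nearest 3.57) and at 2.08 in oocyte 6. Cldn7 was at 7.13 in L2C embryo 5 (9 UMIs, nearest 2.21) and at 1.86 in oocyte 2. F11r was at 2.54 in oocyte 7 and Tjp1 at 2.40 in oocyte 5. Cldn4 was at 0.53 in E2C embryo 2 and Cldn6 at 0.547 in E2C embryo 1, each a single UMI with the other embryos of the stage at 0. Dsp was at 1.02 in E2C embryo 3, 2.45 in 4-cell embryo 2 and 2.81 in 8-cell embryo 3, on 2, 1 and 1 UMIs. The 4-cell embryo 2 and 8-cell embryo 3 were also among the 5 embryos of low depth.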

How the results depend on the processing

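No called difference of a junction gene or isoform changed direction under any alternative run. Cdh1 and Cldn4 from 4-cell to 16-cell and Ctnnb1 from E2C to L2C were called under every one. F11r from E2C to L2C was called under all 17 that gave it a value, and the isoform table summed per gene gave it none. Among genes, calls were lost most often for Cldn6 from L2C to 4-cell (10 of 18), Cldn7 from E2C to L2C (8 of 18) and F11r from L2C to 4-cell (7 of 17). Among isoforms they were lost most often for the single-exon Ctnnb1 form from 4-cell to 16-cell (9 of 19) and the full-length Cldn4 form from 4-cell to 8-cell (6 of 19).

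The number of junction genes called was 1 with a pseudocount of 0.25 from oocyte to zygote (0 as reported). From zygote to E2C it was 0 with the isoform table summed per gene and 1 to 2 when 1 embryo was left out, and 2 without E2C embryo 1. From E2C to L2C (5 as reported) it was 2 with a pseudocount of 4, 3 with no filter, 3 with DESeq2 and 2 with the isoform sum. From L2C to 4-cell (3) it was 0 with a pseudocount of 0.25 or 4 and with adjusted p-values, 1 with no filter, the isoform sum or without shallow embryos, and 1 to 3 with 1 embryo left out, 1 without 4-cell embryo 4 or 5. From 4-cell to 8-cell (2) it was 1 with a pseudocount of 4 or the isoform sum. From 8-cell to 16-cell (0) it was 1 with no filter, no array weights, edgeR, DESeq2 or without shallow embryos, 2 with the isoform sum, and 0 to 1 with 1 embryo left out (1 without 8-cell embryo 1 or 4 or 16-cell embryo 2 or 3). From 4-cell to 16-cell (2) it was 4 with edgeR or DESeq2, and 3 with no array weights, only the stages compared or TMM factors. Smaller changes in the counts of other comparisons, of genes or isoforms, are not all listed.

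For isoforms from E2C to L2C (2) the count was 5 with a pseudocount of 0.25 or edgeR, 1 with a pseudocount of 4 or only the stages compared, 4 with no array weights or summed UMIs, and 2 to 4 with 1 embryo left out (4 without E2C embryo 3). From L2C to 4-cell (2) it was 1 with a pseudocount of 4. From 4-cell to 8-cell (1) it was 2 with a pseudocount of 0.25 or no array weights, 0 with a pseudocount of 4, only the stages compared, without shallow embryos or with adjusted p-values, and 0 to 2 with 1 embryo left out (0 without 4-cell embryo 3 or 5, 2 without 4-cell embryo 1 or 8-cell embryo 2). From 8-cell to 16-cell (0) it was 1 with no array weights, summed UMIs, cells of at least 10000 UMIs, TMM or without shallow embryos, 2 with edgeR, and 0 to 2 with 1 embryo left out: 2 without 16-cell embryo 1, and 1 without 8-cell embryo 1, 3 or 4 or 16-cell embryo 2, 3 or 4. From 4-cell to 16-cell (3) it was 1 with a pseudocount of 4. The cause of these changes was not tested.

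TMM factors moved the median of all genes by -0.11 from zygote to E2C, -0.14 from E2C to L2C and 0.16 from 4-cell to 8-cell. Leaving out L2C embryo 1 and the shallow embryos was chosen after seeing the data. No paired analysis was possible because embryos of different stages with the same number are different embryos. At the depth of the later stages a gene of 1 copy gives 0 or 1 UMI in a cell, which limits Tjp1, Jup, Cldn6 and Dsp.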
